A study of Arabidopsis thaliana with 6 samples.

Results

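Genes for small secreted peptides were examined in 10-day-old seedlings of Arabidopsis thaliana, on 3 arrays from sdg2 mutant plants and 3 from wild type plants, all of the Columbia accession (Col-0). The seedlings were grown whole on plates in continuous light without any treatment, and the labels name no allele of the mutation. SDG2 is a histone methyltransferase that adds trimethylation to lysine 4 of histone H3, a mark of active genes. The genes were chosen by symbol in the platform annotation, from the families CLE, RALF or RALFL, EPF, EPFL, IDL, PSK, DVL, RTFL, PROPEP, GASA, LCR and SCRL, with CLV3 left out. Of 13513 probe sets naming 1 gene, 25 matched, and each of these stood for a different gene. They comprised 11 RALFL, 6 CLE and 8 LCR genes, and the other 9 families had no gene under such a symbol in the annotation used here.

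Secreted peptides are made as precursors that enter the secretory pathway, are often cut by proteases, and are perceived outside the cell by receptor kinases. RALF (rapid alkalinization factor) peptides are cysteine-containing ligands of FERONIA-type receptor kinases and affect growth, the cell wall and immune responses. CLE peptides, named after CLAVATA3 and the maize protein ESR, are short peptides cut from the end of their precursors that set the balance of division and differentiation in meristems and vascular tissue. LCR (low-molecular-weight cysteine-rich) proteins are defensin-like. Of the 8 LCR genes, 5 also carry a plant defensin name in the RefSeq gene table (LCR66 is PDF2.4, LCR67 is PDF1.1, LCR68 is PDF2.3, LCR69 is PDF2.2 and LCR72 is PDF2.6), so for these the label of signalling peptide rests on the symbol.

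The values were log2 expression values from the authors' GCRMA processing, a method that subtracts background, gives all arrays a like distribution and summarizes the probes of a probe set. A difference of 1 on this scale is 2-fold. A gene was taken as near background where its mean was below 3 in both genotypes. The arrays correlated at 0.997 to 0.998 within a genotype and at 0.970 to 0.971 between genotypes over 22746 probe sets, and the array medians lay between 5.90 and 5.96. The labels call the 3 samples of a genotype biological replicates without saying how they were grown apart, so the p-values below reflect only how these samples vary, part of which may be technical. In whole seedlings, fewer cells of a type and less RNA per cell cannot be told apart.

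A total of 13 of the 25 peptide genes (52.0%) were near background in both genotypes, against 30.8% of all probe sets and 36.5% of those naming 1 gene. The other 12 genes, which were 7 RALFL, 3 CLE and 2 LCR genes, had means of at least 3 in both genotypes. Of the 25 genes, 5 fell in sdg2 and 1 rose at an adjusted p below 0.05 in limma (sdg2 minus wild type, Benjamini-Hochberg over all 22746 probe sets). The 6 called genes are 24.0% of the 25, and 36.6% of all probe sets were called, 17.6% lower and 19.0% higher. Among the genes with a mean over the 6 arrays of at least 3, 6 of 12 peptide genes were called, against 53.0% of all such probe sets, so the share called was near the background. The falls made up 5 of the 12 (41.7%), where 25.5% of such probe sets fell, and the rise 1 of 12 (8.33%), where 27.5% rose. The values of the genotypes did not overlap in 10 of the 12 genes (83.3%) and in 10 of the 25, against 66.0% of all probe sets at that level and 48.3% of all probe sets. The median change was -0.33 over the 12 genes and 0.03 over all probe sets at that level. RALFL27 and RALFL32 fell by more than 2-fold, and 5.51% of all probe sets fell by at least that much.

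**Figure D1:**
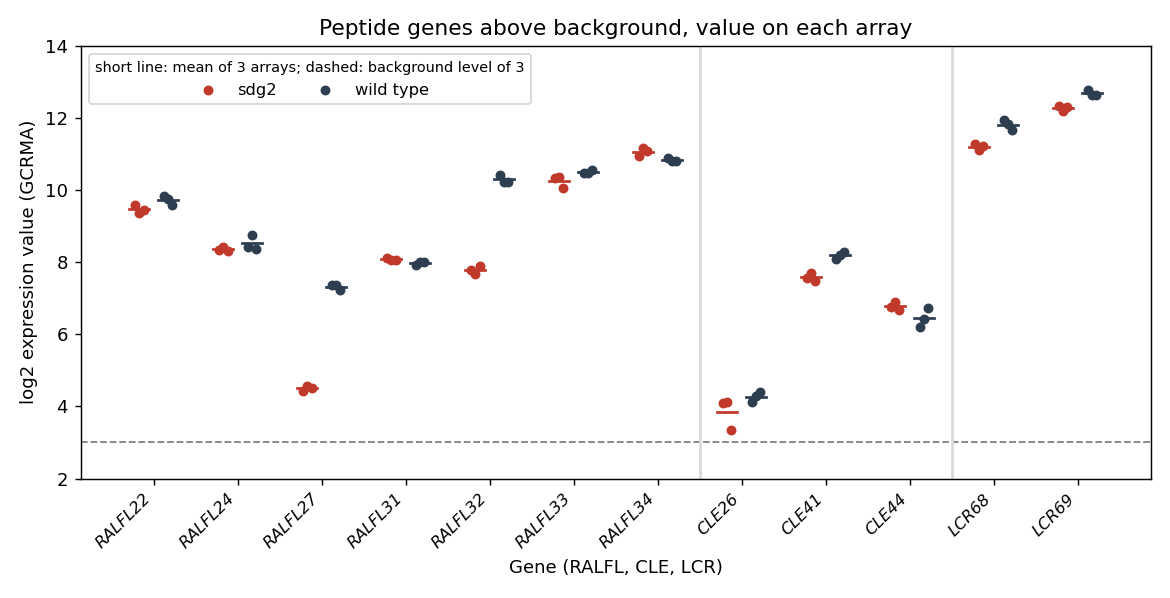
Log2 expression value (GCRMA) on each array for the 12 peptide genes above background, with sdg2 to the left of wild type; points are arrays, short lines are means of 3 and the dashed line is the background level of 3. RALFL27 and RALFL32 have sdg2 values between 4.41 and 7.89 that lie far under their wild type values, while the other genes differ by less than 1 log2 unit.

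In the RALFL family the 2 large falls stood beside small differences in the other 5 genes above background. RALFL27 had values of 4.41, 4.57 and 4.52 in sdg2, against 7.36, 7.38 and 7.23 in wild type. Every sdg2 array lay below every wild type array, and the sdg2 mean of 4.50 was above the level of 3 taken as background. Whether GCRMA compresses differences at the sdg2 level was not tested. The change was -2.82 ± 0.06 on the log2 scale (SE, n = 3 per group), a 7.07-fold lower signal (limma, adjusted p = 1.44e-05), and it ranked 105 among the falls of all 22746 probe sets.

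RALFL32 had values of 7.79, 7.67 and 7.89 in sdg2 and of 10.43, 10.23 and 10.24 in wild type. The groups were again fully apart, with the 3 sdg2 arrays within 0.22 of one another. It fell by 2.51 ± 0.08 (limma, adjusted p = 3.90e-05), which is 5.71-fold, at rank 171 among the falls.

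RALFL34, the peptide perceived by the receptor kinase THESEUS1 in root development, was the one member that rose. Its values were 10.94, 11.16 and 11.08 in sdg2 and 10.89, 10.82 and 10.82 in wild type. The groups did not overlap, but the nearest arrays were only 0.05 apart. The change was 0.22 ± 0.06, or 1.16-fold (limma, adjusted p = 0.0467). This call was lost in 11 of 15 alternative settings, with adjusted p up to 0.128, among them the leaving out of any single array other than sdg2 replicate 1.

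RALFL22, RALFL33, RALFL31 and RALFL24 did not pass. RALFL33, a peptide known to bind FERONIA and dampen immune receptor signalling, had values of 10.35, 10.38 and 10.07 in sdg2, against 10.47, 10.46 and 10.56 in wild type. All sdg2 arrays were below all wild type arrays, with sdg2 replicate 3 the lowest. The change of RALFL33 was -0.23 ± 0.09 (limma, adjusted p = 0.119), and it was -0.13 without sdg2 replicate 3 (adjusted p = 0.0805).

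RALFL22, another ligand of FERONIA, had values of 9.59, 9.37 and 9.46 in sdg2 and of 9.83, 9.74 and 9.60 in wild type. The groups were separated by only 0.00599, and the change was -0.25 with a 95% interval from -0.47 to -0.03 (limma, adjusted p = 0.0770). The call changed with median centring (adjusted p = 0.0445), with the filter on probe sets at 5 (0.0449) and without wild type replicate 3 (0.0490), under each of which RALFL22 was called lower. The change of RALFL33 minus that of RALFL22 was 0.02 (exact permutation test, two-sided p = 0.8, also after adjustment over 4 pairs of genes), which does not show that they are alike. RALFL31 had 8.13, 8.06 and 8.07 in sdg2, against 7.92, 7.99 and 8.02 in wild type. Its change of 0.11 was small although the groups did not overlap, with an interval from 0.01 to 0.20 (limma, adjusted p = 0.0845, or 0.0445 with quantile normalization). RALFL24 had 8.33, 8.42 and 8.32 in sdg2 and 8.43, 8.76 and 8.38 in wild type, groups that overlapped, and a change of -0.16 with an interval from -0.45 to 0.12.

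**Figure D2:**
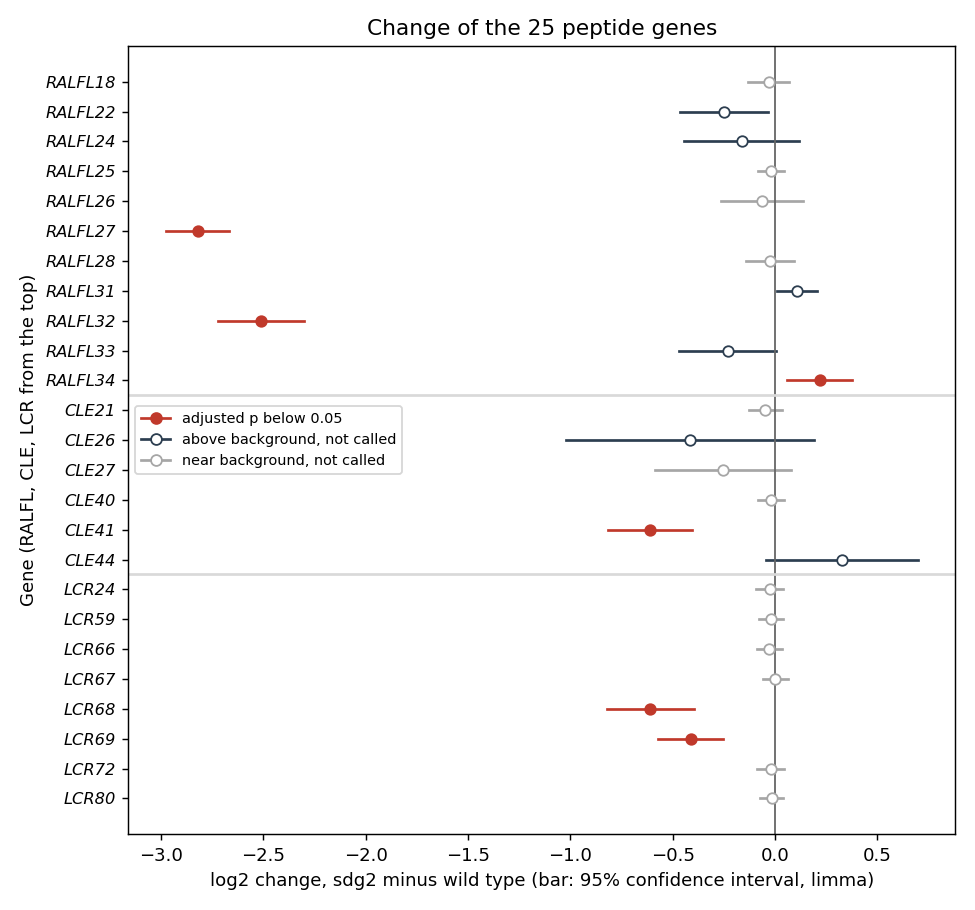
Log2 change, sdg2 minus wild type, with its 95% confidence interval from limma for each of the 25 peptide genes, in the order RALFL, CLE, LCR from the top; red marks an adjusted p below 0.05, dark open points are genes above background that were not called and grey points are genes near background. The falls of RALFL27 and RALFL32, -2.82 and -2.51, stand apart from all other genes, whose changes lie between -0.61 and 0.33.

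In the CLE family the 2 genes for the vascular peptide TDIF (tracheary element differentiation inhibitory factor) had changes of opposite sign. CLE41 and CLE44 encode the same mature peptide, which comes from the phloem and is perceived by the receptor kinase PXY in dividing vascular cells. CLE41 had values of 7.55, 7.71 and 7.49 in sdg2 and of 8.10, 8.20 and 8.30 in wild type. The groups were apart by 0.38, and CLE41 fell by 0.61 ± 0.08, or 1.53-fold (limma, adjusted p = 0.00299).

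CLE44 had values of 6.76, 6.90 and 6.68 in sdg2, against 6.21, 6.43 and 6.72 in wild type. Here wild type replicate 3 lay within the sdg2 range and the wild type arrays were the more spread. The change of 0.33 did not pass, with an interval from -0.04 to 0.70 (limma, adjusted p = 0.155). Without wild type replicate 3 it was 0.46 and passed (adjusted p = 0.0353). The change of CLE41 minus that of CLE44 was -0.94, and each sdg2 array had a lower CLE41 minus CLE44 value than each wild type array (exact permutation test over arrays, two-sided p = 0.1, the smallest that 3 against 3 allows; 0.133 adjusted over 4 pairs of genes compared in this way).

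CLE26, a peptide known to affect root phloem and root architecture, was dim on all arrays. It had 4.10, 4.12 and 3.34 in sdg2, against 4.13, 4.28 and 4.40 in wild type. The low value of sdg2 replicate 3 made up most of the difference, which was -0.41 with all arrays (limma, adjusted p = 0.265) and -0.16 without that array. CLE21, CLE27 and CLE40 were near background. CLE40, which restrains stem cells of the root tip, had values from 2.41 to 2.47 over the 6 arrays. CLE27 reached 3.03 on wild type replicate 3, the one value of any of the 13 background genes above 3. The highest mean of a gene near background was 2.87, in CLE21, and the lowest mean over 6 arrays of a gene above it was 4.06, in CLE26.

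**Figure D3:**
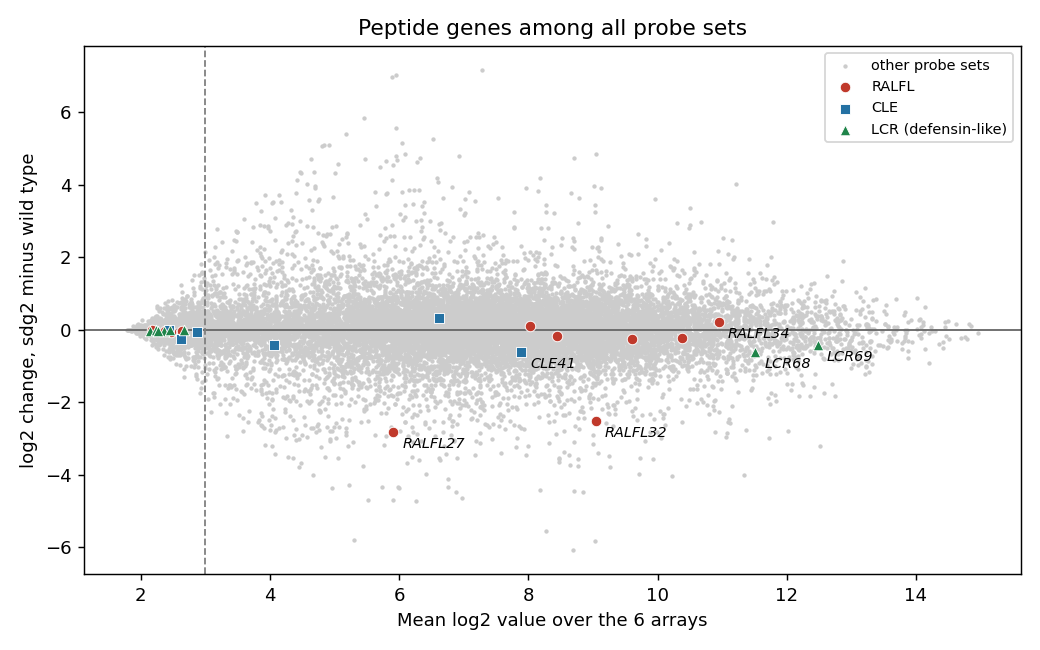
Log2 change, sdg2 minus wild type, against the mean log2 value over the 6 arrays for all 22746 probe sets (grey) and for the RALFL, CLE and LCR genes (coloured), with the background level of 3 dashed and the called members named. The peptide genes form a tight group at the left, near background and near a change of 0, and a sparse set of 12 to the right, of which 9 lie below 0.

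Of the LCR genes, 2 were above background and both fell, where 25.5% of all probe sets with a mean of at least 3 fell. LCR68 (PDF2.3) had values of 11.29, 11.11 and 11.23 in sdg2, against 11.93, 11.84 and 11.68 in wild type. The groups did not overlap, and the change was -0.61 ± 0.08, or 1.53-fold lower (limma, adjusted p = 0.00351). LCR69 (PDF2.2) had values of 12.33, 12.19 and 12.31 in sdg2 and of 12.79, 12.63 and 12.65 in wild type. It too was lower on every sdg2 array and fell by 0.41 ± 0.06, or 1.33-fold (limma, adjusted p = 0.00510). The change of LCR68 minus that of LCR69 was -0.20 (exact permutation test, two-sided p = 0.1, the smallest possible; 0.133 adjusted over the 4 pairs). Whether the probe sets of such similar genes read each other's transcripts was not tested.

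LCR24, LCR59, LCR66, LCR67, LCR72 and LCR80 were near background, with values from 2.13 to 2.68. Together with RALFL18, RALFL25, RALFL26 and RALFL28, of which RALFL25 and RALFL26 are known as pollen peptides, and with CLE21, CLE27 and CLE40, they make up the 13 background genes. In limma 0 of these 13 passed and 0 had an unadjusted p below 0.05. The groups were apart in 0 of them, against 48.3% of all probe sets and 66.0% of those with a mean of at least 3. The share apart among probe sets near background was not counted, so this 0 is not read as a trait of these genes. Their changes ran from -0.25 in CLE27 to 0.00 in LCR67, with 12 of 13 below 0. The median over the 13 was -0.03, and it was -0.01 over the 6996 probe sets near background, of which 0.615% were called. Changes just below 0 were thus common at this level, and the 12 of 13 is not read as a trait of these genes. GCRMA compresses differences at this level, so a change in these genes may not have been detectable. VEX1, a gene of the pollen vegetative cell and the 1 measured gene of 9 markers of flower, pollen and seed, was also near background, with means of 2.33 in sdg2 and 2.60 in wild type. Here and below, a listed gene counts as measured where a probe set naming only that gene matched its locus. The other listed genes may still be on the array.

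Peptide genes near each other on a chromosome, where above background, fell together in one place and had unlike changes in another. In the RefSeq gene order (assembly TAIR10.1, used for order and names only), RALFL31 and RALFL32 have 10 protein-coding genes between them. Their changes of 0.11 and -2.51 differed by 2.62 (exact permutation test, two-sided p = 0.1, the smallest possible; 0.133 adjusted over the 4 pairs). LCR68 and LCR72 lie side by side, the first bright and lower in sdg2 and the second near background. PDF2.1, also known as LCR70 but listed under its defensin name and so outside the 25 genes, lies next to LCR68 on the other side, with 1 gene between it and LCR69. Its values were 7.17, 6.90 and 7.55 in sdg2 and 8.33, 8.34 and 8.38 in wild type. PDF2.1 fell by 1.14 ± 0.17 (limma, adjusted p = 0.00465), so that the 3 genes of this cluster above background were all lower in sdg2. Among all probe sets with a mean of at least 3, 25.5% fell. Whether the probe sets of these 3 genes read each other's transcripts was not tested, so they may not be independent.

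A further 4 genes carry an LCR or EPFL name only as a synonym and likewise stand outside the 25. They were found by name and not by value, and all 4 were called, where 53.0% of probe sets with a mean of at least 3 were. STOMAGEN (EPFL9), a peptide from the leaf mesophyll that promotes stomata, had values of 7.93, 7.53 and 7.66 in sdg2, against 10.11, 9.76 and 10.07 in wild type. The sdg2 arrays were separated from the wild type arrays by 1.83, and STOMAGEN fell by 2.27 ± 0.14, or 4.83-fold (limma, adjusted p = 0.000256). PDF2.5 (LCR74) had 4.67, 4.65 and 5.22 in sdg2 and 8.39, 8.17 and 8.58 in wild type. It fell by 3.53 ± 0.20, or 11.6-fold (limma, adjusted p = 0.000171), which is more than any of the 25 genes and ranked 42 among all falls. PDF1.4 (LCR78) fell by 1.61 ± 0.31 (limma, adjusted p = 0.0125), with wild type values spread from 5.66 to 6.83. PDF1.2 (LCR77), a defensin induced by jasmonate and ethylene, went the other way. Its values were 9.02, 8.98 and 8.91 in sdg2, against 5.60, 5.07 and 4.86 in wild type. PDF1.2 rose by 3.79 ± 0.20, or 13.8-fold (limma, adjusted p = 0.000145), at rank 49 among all rises.

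**Figure D4:**
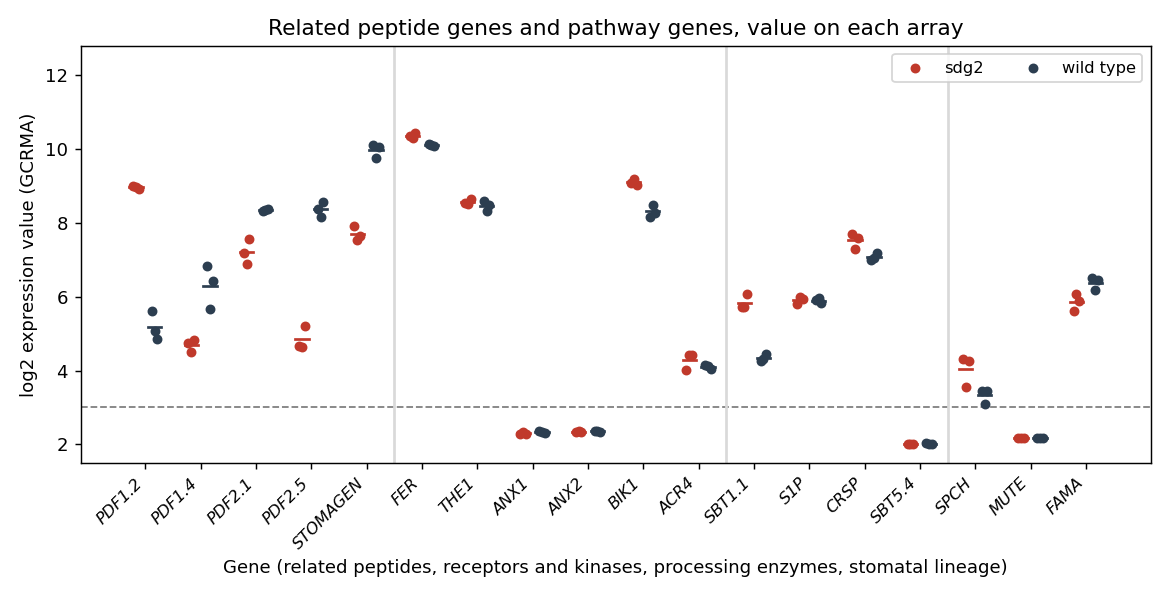
Log2 expression value (GCRMA) on each array, sdg2 to the left of wild type, for 5 peptide genes listed under other names and for measured receptors and kinases, processing enzymes and stomatal lineage genes; short lines are means of 3 and the dashed line is the background level of 3. STOMAGEN and PDF2.5 are lower in sdg2, with changes of -2.27 and -3.53, while PDF1.2 is higher by 3.79 and SBT1.1 by 1.49.

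Receptors and kinases of these pathways were measured for 6 of 30 listed genes. In limma 2 rose, 0 fell and 4 did not pass, a share called near the 36.6% of all probe sets. Among all probe sets 19.0% rose, and 27.5% of those with a mean of at least 3. FER, the receptor of several RALF peptides, had values of 10.36, 10.32 and 10.43 in sdg2 and of 10.14, 10.13 and 10.08 in wild type. Its rise of 0.25 ± 0.04 (limma, adjusted p = 0.00512) was small and the groups did not overlap. BIK1, a cytoplasmic kinase that acts below several of these receptors, had 9.09, 9.20 and 9.03 in sdg2, against 8.17, 8.50 and 8.26 in wild type, and rose by 0.80 ± 0.10 (limma, adjusted p = 0.00256). THE1, the receptor of RALFL34, had a change of 0.11 and ACR4, which perceives CLE40, of 0.18, and neither passed, although ACR4 did without sdg2 replicate 1 (0.32, adjusted p = 0.0103). ANX1 and ANX2, the pollen tube relatives of FERONIA, were near background. The median of the 6 genes was 0.15.

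Of 8 listed enzymes that cut peptide precursors 4 were measured, and 2 rose while 0 fell. Among all probe sets 36.6% were called and 19.0% rose. Of those with a mean of at least 3, 53.0% were called and 27.5% rose. SBT1.1, a subtilase known for cutting a phytosulfokine precursor, had values of 5.71, 5.73 and 6.07 in sdg2 and of 4.25, 4.32 and 4.45 in wild type. It rose by 1.49 ± 0.12, or 2.82-fold (limma, adjusted p = 0.000501). CRSP, a subtilase that cuts the stomatal peptide precursor EPF2, had a rise of 0.46 (limma, adjusted p = 0.0283). This call was lost in 6 of 15 settings, among them when sdg2 replicate 1 or 3, or wild type replicate 1 or 2, was left out (adjusted p from 0.0696 to 0.0918). S1P, a protease that cuts RALF precursors, had 5.80, 5.98 and 5.94 in sdg2, against 5.90, 5.96 and 5.82 in wild type. These groups overlapped throughout, with a change of 0.01 and an interval from -0.15 to 0.17. SBT5.4 was near background. The median change of the 4 genes was 0.24.

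The stomatal lineage, on which STOMAGEN acts, was measured by 3 of 10 listed genes, 1 of which fell. Among all probe sets 17.6% fell, and 25.5% of those with a mean of at least 3, so this count does not stand out. FAMA, the regulator of the last step to guard cells, had 5.61, 6.07 and 5.89 in sdg2 and 6.52, 6.18 and 6.45 in wild type. The fall of FAMA by 0.52 ± 0.15 (limma, adjusted p = 0.0461) was lost in 8 of 15 settings, among them without replicate 1 or 3 of either genotype (adjusted p from 0.0874 to 0.134). SPCH, which starts the lineage, had 4.32, 3.55 and 4.27 in sdg2, against 3.45, 3.10 and 3.45 in wild type. Its change of 0.71 did not pass (limma, adjusted p = 0.0788) but passed in 4 of the 14 settings that kept it, among them without sdg2 replicate 2 (adjusted p = 0.00962). MUTE was near background at 2.17 in both genotypes. STOMAGEN comes from the leaf mesophyll, of which these stomatal genes give no measure. The part of a different mesophyll share in the change of STOMAGEN was not tested.

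Of 8 listed root tissue markers 3 were measured, of which 2 fell and 1 did not pass. Among all probe sets with a mean of at least 3, 53.0% were called and 25.5% fell, so so few markers show little. Their means ran from 5.17 to 13.13 in sdg2 and from 5.92 to 13.46 in wild type, and none was at background. EXPA18 fell by 0.33 (limma, adjusted p = 0.00956) and PYK10 by 0.33 (adjusted p = 0.0423), whereas the change of EXPA7, -0.75, missed the threshold (adjusted p = 0.128). The call for PYK10 was lost in 7 of 15 settings, among them when sdg2 replicate 1 or 3, or wild type replicate 2 or 3, was left out (0.109 to 0.122), and EXPA7 passed without wild type replicate 3 (-1.02, adjusted p = 0.0363). The part of a different root share in the falls of RALFL27, RALFL32 and CLE41 was not tested. GID1A, a gibberellin receptor and the 1 measured gene of 10 on the gibberellin list, rose by 0.27 ± 0.05 (limma, adjusted p = 0.00861), and the 3 listed WOX genes were not analysed here.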

How the data were processed

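RNA of 6 seedling samples was measured on 1-colour Affymetrix arrays. The deposited values are on the log2 scale, and per the submitters' processing notes the authors used GCRMA; no version or setting is given in the sources used here. The 64 Affymetrix control probe sets among 22810 were left out. Gene names came from the platform annotation, and the RefSeq gene table (assembly TAIR10.1) matched 23 of the 25 genes. No gene had more than 1 probe set.

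The comparison of sdg2 and wild type used lmFit and eBayes of limma 3.58.1 (R 4.3.3) with genotype as the one term. P-values were adjusted by Benjamini and Hochberg's method across the 22746 remaining probe sets, with a threshold of 0.05; errors are moderated standard errors. The fit was tested on simulated data. The number of arrays limits the precision. Named were all members above background, and of each pathway list up to 2 called members in each direction, or all where 3 or fewer were measured; other list genes named were chosen after their values were seen. The members and lists were chosen with earlier results of these data known. Alternatives were a replicate block, 2 normalizations, 2 filters, 2 variance models, averaging or restricting probe sets, and leaving out each array. Figures were drawn with matplotlib 3.10.9.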

Additional observations from a re-analysis of the deposited data

How the results depend on the processing

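The number of peptide genes called was between 5 and 7 in all 15 alternatives, against 6 with the deposited values. These counts are not alike in meaning, since the share of all probe sets called ran from 30.4% (only probe sets naming 1 gene) to 63.4% (filter at 5). The filter at 3 kept 12 members and called 5, against 57.9% of the probe sets kept. The filter at 5 kept 11 and called 7. The number near background was 13 in all 8 alternatives, including a background level of 4. Leaving out each array in turn gave 5 to 7 of the 25 called, against 32.4% to 33.3% of all probe sets. RALFL27, RALFL32, CLE41, LCR68 and LCR69 were called lower in each of the 15, with changes of -2.87 to -2.78 for RALFL27 and of -2.57 to -2.45 for RALFL32. Of the 6 calls, the rise of RALFL34 was the one that was lost, for example with median centring (0.18, adjusted p = 0.0813). Of the uncalled members, RALFL22 passed in 3 settings, RALFL31 in 1 (quantile normalization) and CLE44 in 1 (without wild type replicate 3). Replicate numbers are shared between the genotypes, but no label ties a number to a shared batch, so the arrays were not treated as paired. Deviations of same-numbered arrays correlated at -0.01, 0.07 and 0.06, and those of unlike-numbered arrays at -0.08 to 0.01. These values are small, but replicates 2 and 3 each correlated best with their own number, and a shared batch was not tested. With the replicate block 5 of the 25 members and 34.6% of all probe sets were called. The rise of RALFL34 was then lost (limma, adjusted p = 0.121), as were the calls for CRSP and FAMA, and SPCH and EXPA7 passed. The alternatives on genes outside the 25 were added after seeing the data. Groups of 3 arrays give no exact p below 0.1, and differences near background could not be resolved.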
